A study of Mus musculus with 4 samples.

Results

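The genes described here are the mouse histone genes: the clustered, replication-dependent genes, whose names begin with Hist1h, Hist2h, Hist3h or Hist4h, and the variant genes, whose names begin with H2af, H3f or H1f. The arrays carried 62 such names, and 57 of them, 43 clustered and 14 variant, had a probe well above background on at least 1 of the 4 arrays, out of 17694 genes that met the same condition and 31823 gene names in all. The 57 are the members, chosen by name and by detection, not by any difference between arrays. RNA came from erythrocyte/megakaryocyte progenitors (MEP), the blood progenitors that give rise to red cells and to platelet-forming megakaryocytes, of C57BL/6 mice. There was 1 array for each of 4 groups, as labelled: Ezh2-null and wild type from adult bone marrow, and Ezh2-null and wild type from fetal liver at E14.5. Ezh2 is the histone methyltransferase of Polycomb repressive complex 2. The labels do not say how the cells were isolated, how many animals they came from, or which part of Ezh2 was deleted in which cells.

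Histones are the proteins around which DNA is wound: H2A, H2B, H3 and H4 form the core of the nucleosome, and H1 binds the linker DNA between nucleosomes. The clustered genes lie together in a few genomic clusters and make most of their mRNA during S phase, when new chromatin is assembled. Their mRNAs are unusual in ending in a conserved stem-loop in place of a poly(A) tail, and the stem-loop binding protein (SLBP) binds it through processing, translation and decay. Some clustered genes are also known to make polyadenylated mRNAs in differentiated cells. Variant genes for the most part lie elsewhere in the genome and make polyadenylated mRNA, and they supply histones outside S phase or for special regions of chromatin. By probe positions, the variant H2afj lies close to Hist4h4 on chromosome 6.

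Levels below are scaled intensities: the brightness of a probe after scaling each array so that the 75th percentile was equal over the 12880 probes that every array detected well above background. Levels of different probes are not set against each other, because probes differ in their response. Differences are log2 ratios of 2 arrays, and a difference of at least 2-fold is called higher or lower. With 1 array a group, such a difference has no replicate check, and its size is a description of those 2 arrays. The median log2 SD between repeated spots of 1 probe within an array ran from 0.075 to 0.14, which covers printing and reading error only. Between 39.0% and 46.4% of probes were well above background on an array. Over the detected probes the 2 bone marrow arrays correlated at 0.982, and the other pairs at 0.915 to 0.937, so fetal liver arrays differed more from each other than bone marrow arrays did. The single Ezh2 probe, which starts at base 2558 of its transcript, read 70 in Ezh2-null and 35.4 in wild-type bone marrow. In fetal liver it read 194.3 in Ezh2-null and 33.5 in wild type. The signal was thus higher on the arrays labelled Ezh2-null. Since the labels do not give the deleted part, this probe cannot check the labels, and every direction by genotype below is that of the arrays so labelled. Of 12 MEP marker genes, 10 or 11 were detected on each array, with Gata1, Klf1 and Epor on all 4 and Cd34 on none.

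With the scaling used here, most clustered histone genes stood high on 1 array, that of wild-type fetal liver, and close together on the other 3. Of 40 clustered genes detected on the wild-type fetal liver array, 31 (77.5%) were there at least 2-fold above each of the other 3 arrays. The same held for 2 of 12 variant genes (16.7%), and for 7.86% of 13239 genes in all. The 31 include Hist2h3c2, and the 2 variants are H1f0 and H2afj. Hist2h3c2 and H1f0 were detected on that array only, and the H2afj probe shares bases with clustered genes. The median clustered gene was 3.65-fold above the next highest array, and its other 3 arrays lay within 1.55-fold of each other. For the median variant gene the corresponding values were 1.11-fold and 2.21-fold. This pattern depends on the scaling. Scaled to the spike-in RNA, 15 of 41 clustered genes compared were at least 2-fold lower in wild-type bone marrow than in wild-type fetal liver. With that scaling, 27 of 42 were at least 2-fold higher in Ezh2-null bone marrow than in Ezh2-null fetal liver. Detection itself varied little: 41, 38, 37 and 40 of the 43 clustered genes were well above background in Ezh2-null bone marrow, wild-type bone marrow, Ezh2-null fetal liver and wild-type fetal liver, in that order. In bulk RNA, fewer cells of a kind and less RNA per cell cannot be told apart, which holds for every level below.

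**Figure D1:**
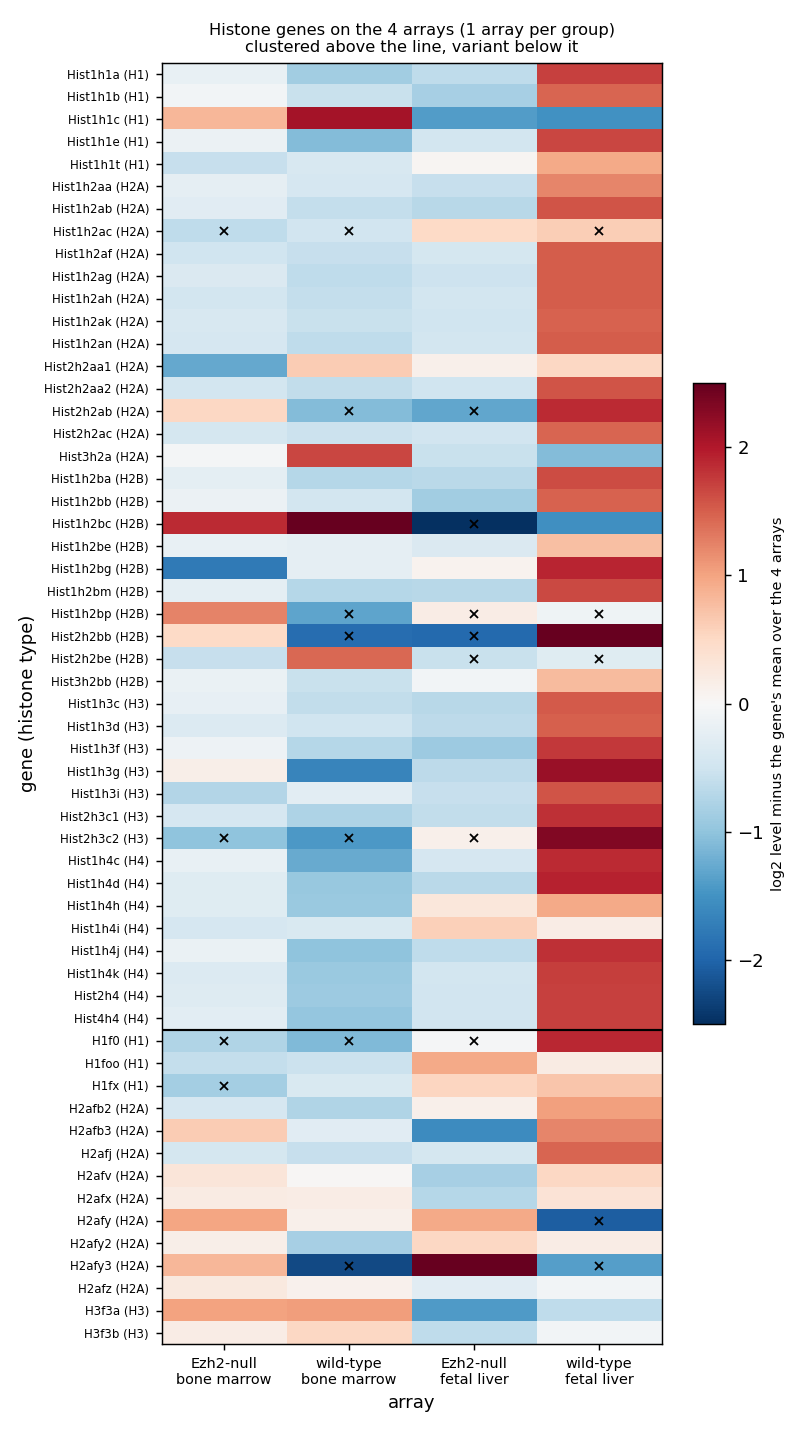
Log2 level of each of the 57 histone genes minus its mean over the 4 arrays (colour), with arrays in columns and genes in rows, 43 clustered genes above the line and 14 variant genes below it; a cross marks an array on which the gene was not well above background. With the scaling used here, the wild-type fetal liver column is red for most clustered genes, while the variant rows show no single high column. On this scale 31 of 40 clustered genes were there at least 2-fold above each other array.

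The 5 members with the highest mean signal show the pattern, except for the variant H2afz. Hist1h4k, an H4 gene, had a level of 20850 in Ezh2-null bone marrow, 13941 in wild-type bone marrow, 19092 in Ezh2-null fetal liver and 87288 in wild-type fetal liver. Hist2h4, another H4 gene, read 13399, 8953, 12118 and 55339 in the same order. Hist1h2ah, an H2A gene, read 13303, 12157, 13338 and 52768. For these 3 genes the wild-type fetal liver array was far above the rest, and the other 3 arrays differed by 1.5-fold or less. Hist2h2ac, also H2A, read 12447, 11621, 12077 and 45972, a spread of 1.07-fold without wild-type fetal liver. H2afz, the gene of the variant H2A.Z, found at promoters and enhancers, read 19389, 17589, 13476 and 15621, and no array was 2-fold from another on this probe. Its second probe read 9170, 8604, 3023 and 3977, and was higher in bone marrow than in fetal liver by 1.60 in Ezh2-null and 1.11 in wild type (log2). At the other end, 4 members were detected on 1 array only: Hist1h2ac at 21.8 in Ezh2-null fetal liver, Hist1h2bp at 17.9 in Ezh2-null bone marrow, and Hist2h3c2 at 43.9 and H1f0 at 47.5 in wild-type fetal liver. The 5 names detected on no array were H1fnt, Hist1h1d, Hist1h2ae, Hist1h3a and Hist3h2ba, of which Hist1h3a came nearest, at 5.28 to 13.6.

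In fetal liver, clustered histone genes were lower on the Ezh2-null array than on the wild-type array almost throughout, and none was at least 2-fold higher. Of 41 clustered genes compared, 32 (78.0%) were at least 2-fold lower, 3 of them as bounds, against 13.5% of 16281 genes in all. No clustered gene was at least 2-fold higher, against 15.4% of all genes. The median log2 difference was -2.13 for clustered genes, a 4.39-fold difference, -0.68 for variant genes and -0.14 for all genes. Relative to the median of all genes, clustered genes were 1.99 lower (difference of medians -1.99) and variant genes 0.54 lower (-0.54).

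All 5 histone types took part. Of the clustered H3 genes, which make the core histone that Ezh2 methylates, 7 of 7 were at least 2-fold lower, with a median log2 difference of -2.23. Hist2h3c2, 1 of these 7, was detected in wild-type fetal liver only, so it could not have been higher. Of H4 genes 6 of 8 were lower (median -2.19), of H2A genes 10 of 13 (median -1.97), of H2B genes 6 of 8 (median -2.06), and of linker H1 genes 3 of 5 (median -2.13). The medians of the 5 types lay within 0.3 of each other on the log2 scale. Hist2h2bb, an H2B gene, had the largest difference: 8.48 in Ezh2-null fetal liver, not well above background, and 335.9 in wild-type fetal liver, at least 26.8-fold lower. Hist1h3g, an H3 gene, read 163.8 in Ezh2-null and 1159 in wild-type fetal liver, a log2 difference of -2.82. Hist1h3f, also H3, read 130.8 and 837.7 (-2.68). Hist1h4d, an H4 gene, read 4738 and 28883 (-2.61). These 4 span 3 histone types and both dim and bright probes.

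The rest of the 10 largest differences were close in size. Hist2h2ab, an H2A gene, was not well above background in Ezh2-null fetal liver (8.25) and read 73.3 in wild type, at least 5.84-fold lower. Hist1h4j read 406.4 in Ezh2-null and 2247 in wild-type fetal liver (-2.47), and Hist2h3c1, an H3 gene, 428.0 and 2322 (-2.44). Hist1h2bb and Hist1h2bm, both H2B, had log2 differences of -2.35 and -2.33, and Hist1h1a, a linker histone gene, -2.35. The 9 clustered genes under 2-fold ran from Hist1h1t at -0.90, Hist3h2bb at -0.85, Hist1h2bc at -0.84 (a bound) and Hist1h4h at -0.66 to Hist2h2aa1 at -0.38, Hist1h2ac at 0.00 (a bound under 1-fold, entered as no difference), Hist1h1c at 0.11, Hist1h4i at 0.41 and Hist3h2a at 0.52. Hist1h1t and Hist1h4h were dim on every array, at no more than 69.6. For Hist1h4i, the brighter of 2 probes stood for the gene and shares 16 bases with probes of 5 genes that are not histone genes. Its other probe, near the start of the transcript, read 445.5 in Ezh2-null and 1737 in wild-type fetal liver (-1.96), like the other H4 genes.

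**Figure D2:**
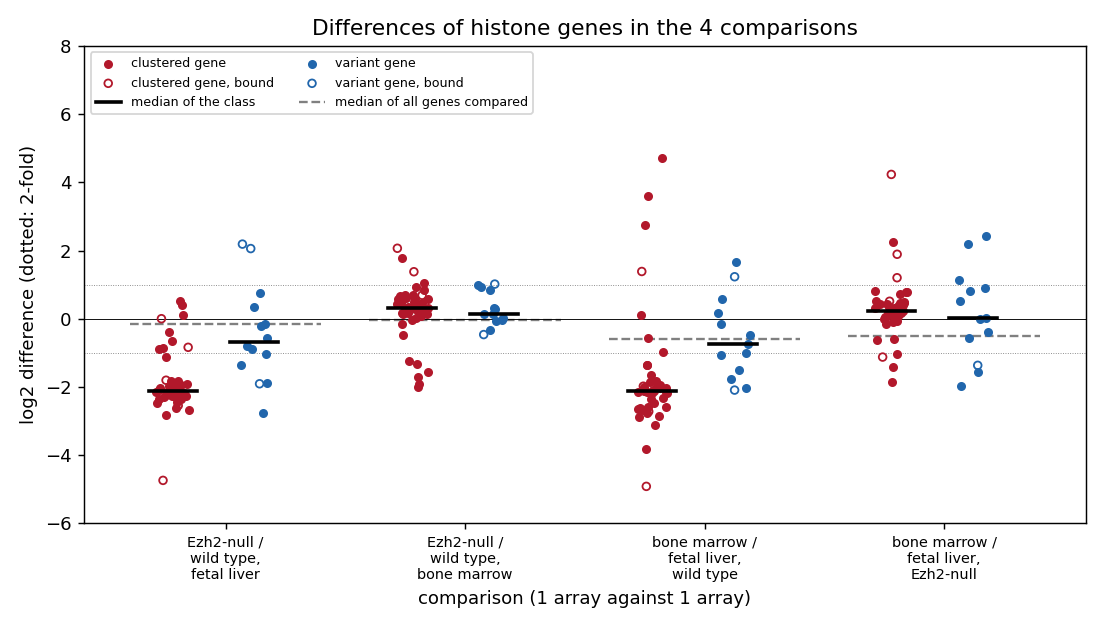
Log2 difference of each clustered (red) and variant (blue) histone gene in the 4 comparisons, 1 array against 1 array; open circles are bounds, black bars the class medians, dashed lines the medians of all genes compared. Clustered medians were -2.13 in Ezh2-null against wild-type fetal liver and -2.12 in wild-type bone marrow against fetal liver, and 0.33 and 0.22 in the other 2 comparisons.

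The clustered genes are not independent readings, because their coding sequences are nearly alike. Of the 43 probes that stand for clustered genes, 15 share a run of 16 bases with a probe of another member, and 12 list more than 1 RefSeq gene. The H2A probes are the clearest case, and the 4 below are shown because they read 4 gene names through almost the same letters. Each lies near the end of an H2A coding sequence, the first 3 up to its stop codon and H2afj short of it, written 5′ to 3′ in the sense of the mRNA, with capitals at bases that differ from the Hist2h2aa2 probe where the 2 overlap (positions on mm9: Hist2h2aa2 on chr3:96049837-96049896, plus strand; Hist1h2ah on chr13:22127035-22127094, minus strand; Hist1h2an on chr13:21878695-21878754, minus strand; H2afj on chr6:136757181-136757240, plus strand).
Hist2h2aa2: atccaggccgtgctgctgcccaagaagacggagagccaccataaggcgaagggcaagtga
Hist1h2ah: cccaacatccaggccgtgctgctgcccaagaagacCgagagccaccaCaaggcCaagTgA
Hist1h2an: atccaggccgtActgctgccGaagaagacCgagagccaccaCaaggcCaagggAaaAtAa
H2afj: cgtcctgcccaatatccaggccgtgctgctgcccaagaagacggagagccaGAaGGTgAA
Of the overlapping bases, Hist1h2ah matched 49 of 54, Hist1h2an 52 of 60 and H2afj 40 of 47. In fetal liver, Ezh2-null against wild type, the 4 probes gave log2 differences of -2.08, -1.98, -1.98 and -1.89 in the order shown, and in bone marrow 0.15, 0.13, 0.23 and 0.13. How much of each signal came from a neighbouring gene was not tested. H2afj, the gene of the variant H2A.J, is the 1 variant whose probe shares 16 bases with clustered members, 6 of them. Its other probe, which starts at base 1664 and shares none, read 477.0 in Ezh2-null bone marrow, 645.3 in wild-type bone marrow, 226.3 in Ezh2-null fetal liver and 380.0 in wild-type fetal liver. On that probe the wild-type fetal liver array was not the highest, and the log2 difference by genotype was -0.75 in fetal liver and -0.44 in bone marrow.

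In bone marrow, Ezh2-null and wild-type arrays differed little for most clustered genes. Of 41 compared, 4 (9.76%) were at least 2-fold higher, against 4.54% of 15298 genes, and 6 (14.6%) at least 2-fold lower, against 7.75%. The median log2 difference was 0.33 for clustered genes, 0.14 for variant genes and -0.03 for all genes. Of 39 clustered genes compared in both sources, 31 were lower in Ezh2-null fetal liver and higher in Ezh2-null bone marrow than in the wild type of the same source (79.5%). The same held for 6 of 13 variant genes (46.2%) and for 29.8% of 13885 genes. The genotype log2 difference in fetal liver minus that in bone marrow was negative by at least 4-fold for 27 of those 39 clustered genes, for 2 of 13 variant genes and for 3.30% of 13885 genes. This difference of differences has no test, because each of its 4 terms is 1 array.

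The 4 higher genes were of 4 types. Hist1h3g read 285.5 in Ezh2-null and 82.3 in wild-type bone marrow, a log2 difference of 1.79. Hist1h4c, an H4 gene, read 1059 and 508.0 (1.06). Hist2h2bb was detected in Ezh2-null bone marrow at 46.5 and not well above background in wild type (8.71), at least 4.19-fold higher, and Hist2h2ab likewise at 28.9 against 9.57, at least 2.60-fold higher. All 4 were among the genes lower in Ezh2-null fetal liver.

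The 6 lower genes were a different kind. Hist2h2be, an H2B gene, read 12.5 in Ezh2-null and 50.4 in wild-type bone marrow (-2.01). Hist2h2aa1, an H2A gene, read 41.5 and 157.5 (-1.92), and Hist3h2a, also H2A, 189.3 and 623.6 (-1.72). In fetal liver neither Hist2h2aa1 nor Hist3h2a was 2-fold apart by genotype, and Hist2h2be was detected on neither array. Wild-type bone marrow was the highest of the 4 arrays for each. Hist1h2bg, an H2B gene, read 15.6 and 46.0 (-1.56), and Hist1h2bc, another, 235.8 and 595.1 (-1.34). Hist1h1c, the gene of the linker histone H1.2, read 1182 and 2822 (-1.25). Hist1h1c and Hist1h2bc were also highest in wild-type bone marrow, whereas Hist1h2bg was highest in wild-type fetal liver, at 200.1.

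These 6 genes have in common where their probes lie, and also a low GC share of those probes, 35% to 45%. All 6 probes start at base 480 of the transcript or later, where 13 of the 43 clustered probes lie. The dividing base was chosen after the values were seen, and the nearest probes on its 2 sides start at bases 441 and 483. Before it, 0 of 30 clustered genes were at least 2-fold lower in Ezh2-null bone marrow and 4 were higher, with a median log2 difference of 0.44. At or beyond it, 6 of 11 compared were lower and none higher, with a median of -1.25. The same division separated the clustered genes in fetal liver: 28 of 30 (93.3%) were at least 2-fold lower before it (median -2.21), and 4 of 11 (36.4%) beyond it (median -0.84). Over all genes, 19.4% of 3317 genes with a probe before base 480 were lower in Ezh2-null fetal liver (median -0.40), and 12% of 12964 beyond it (median -0.05). In bone marrow the corresponding shares over all genes were 3.79% and 8.76%. Divided by probe GC, 9.39% of all genes under 50% GC were lower in Ezh2-null bone marrow, and 2.99% of those at 50% or more. The parts of position and GC in the split were not tested.

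**Figure D3:**
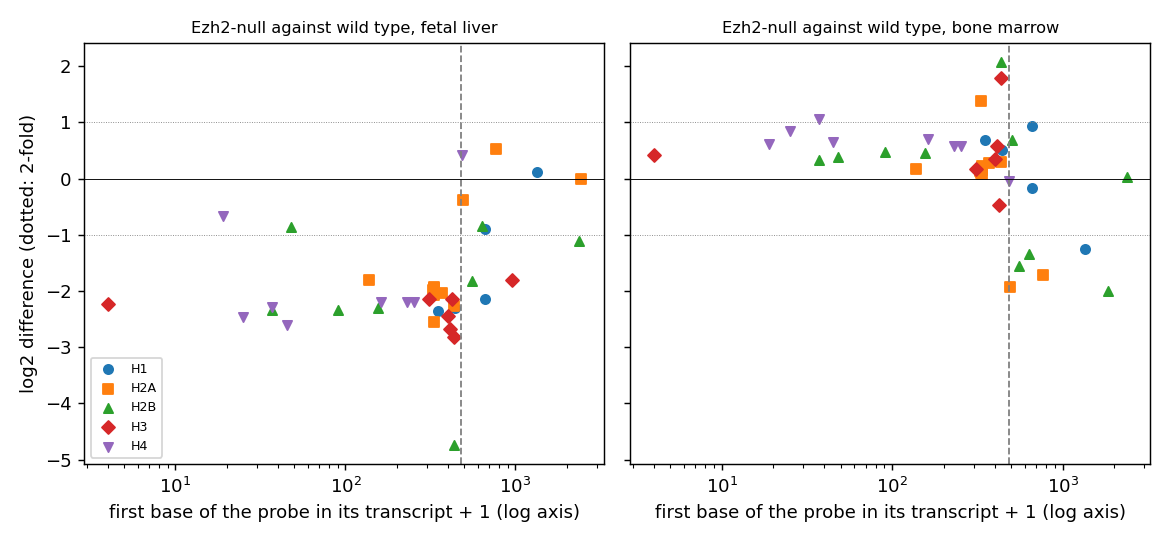
Log2 difference of clustered genes, Ezh2-null against wild type, by the first base of the probe in its transcript plus 1 (log axis), in fetal liver (left) and bone marrow (right), with a marker for each histone type; the dashed line is the dividing base, 480. In fetal liver 28 of 30 points left of it lie at or below the lower 2-fold line, and in bone marrow all 6 points below that line lie right of it.

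A pair of neighbouring probes differed in the same way. The Hist2h2aa2 probe printed above also lists Hist2h2aa1, its near-identical neighbour, and the probe that stands for Hist2h2aa1 lies just downstream, at chr3:96049949-96050008 on mm9. The upstream probe shares 16 bases with probes of 6 other histone names on the array, and the downstream one with 3. Neither need therefore read this place alone. The upstream, coding probe gave log2 differences by genotype of -2.08 in fetal liver and 0.15 in bone marrow. The downstream probe gave -0.38 and -1.92. Its 60 bases hold the histone stem-loop, which closes the 3′ end of processed histone mRNA. The histone stem-loop consensus, 16 bases long, was searched in all probes on the sense strand, and 7 of 39429 probes held it, among them those of 4 members. They are printed because they show which probes reach the end of the processed mRNA, 26 bases each, 5′ to 3′, with the searched letters in capitals (mm9: Hist2h2bb on chr3:96074089-96074114, plus strand; Hist1h3g on chr13:23627753-23627778, plus strand; Hist1h3i on chr13:21874784-21874809, minus strand; Hist2h2aa1 on chr3:96049950-96049975, plus strand).
Hist2h2bb: caaaaGGCTCTTTTCAGAGCCacttt
Hist1h3g: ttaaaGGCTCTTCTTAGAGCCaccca
Hist1h3i: caaaaGGCTCTTTTCAGAGCCccctc
Hist2h2aa1: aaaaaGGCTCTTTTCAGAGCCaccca
In Hist2h2aa1 the stem-loop lies at the upstream edge of the probe, and most of the probe lies beyond it. In Hist2h2bb and Hist1h3g it lies at the downstream edge. Hist1h3i, an H3 gene, read 132.7 in Ezh2-null bone marrow, 183.9 in wild-type bone marrow, 148.3 in Ezh2-null fetal liver and 652.8 in wild-type fetal liver, with log2 differences by genotype of -0.47 in bone marrow and -2.14 in fetal liver. So 3 of the 4 stem-loop probes were highest in wild-type fetal liver, and Hist2h2aa1, at 144.7 there and 157.5 in wild-type bone marrow, was not.

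Between sources in wild type, clustered genes were lower in bone marrow than in fetal liver. Of 41 compared, 34 (82.9%) were at least 2-fold lower in bone marrow, against 31.9% of 15402 genes, and 4 (9.76%) were at least 2-fold higher, against 13.1%. Hist2h3c2, detected in wild-type fetal liver only, is among the 34 and could not have been higher. The median log2 difference was -2.12 for clustered genes, -0.74 for variant genes and -0.58 for all genes. This comparison and the one by genotype in fetal liver share the wild-type fetal liver array, so they are not separate readings of it. Scaling to the spike-in RNA moved the median of all genes to 0.68, and then 15 clustered genes were lower, with a median of -0.82, while the variant median turned to 0.56. All 30 clustered genes with a probe before base 480 were at least 2-fold lower in bone marrow, against 38.6% of 3135 genes with such probes. Hist2h2bb was at least 30.2-fold lower in wild-type bone marrow. Hist1h3g, at 82.3 in wild-type bone marrow and 1159 in wild-type fetal liver, had a log2 difference of -3.81, and Hist1h4c, at 508.0 and 4385, -3.11. Hist1h4d (-2.88), Hist1h4j (-2.84), Hist1h1e (-2.76), Hist4h4 (-2.68), Hist1h4k (-2.65) and Hist2h4 (-2.63) followed, and Hist2h2ab was at least 6.60-fold lower. H4 genes made up 6 of these 10, and 8 of the 41 compared. The probes of Hist1h4c, Hist1h4d, Hist1h4j and Hist1h4k overlap in the RefSeq genes they list, so these are not separate readings.

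The 4 clustered genes higher in wild-type bone marrow all had late probes. Hist1h2bc read 595.1 in wild-type bone marrow and 22.5 in wild-type fetal liver, a log2 difference of 4.73. Hist1h1c read 2822 and 232.6 (3.60), and Hist3h2a 623.6 and 92.6 (2.75). Hist2h2be read 50.4 in wild-type bone marrow and was not well above background in fetal liver (15.1), at least 2.61-fold higher. The same 4 were among the 6 lower in Ezh2-null bone marrow.

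In Ezh2-null cells, bone marrow and fetal liver arrays held nearly the same levels of most clustered genes. Of 42 compared, 4 (9.52%) were at least 2-fold higher in bone marrow, against 10.5% of 16712 genes, and 4 (9.52%) at least 2-fold lower, against 27.1%. The median log2 difference was 0.22 for clustered genes, 0.03 for variant genes and -0.52 for all genes, so clustered genes stood 0.74 above the median of all genes. Under spike-in scaling 27 clustered genes were higher and none lower, with a median of 1.10. The higher ones were Hist1h2bc, at 235.8 in Ezh2-null bone marrow and not well above background in Ezh2-null fetal liver (5.71), at least 18.8-fold higher, Hist1h1c, at 1182 and 251.1 (2.24), and the bounds Hist2h2bb (at least 3.71-fold) and Hist2h2ab (at least 2.30-fold). The lower ones were Hist1h2bg, at 15.6 and 56.6 (-1.86), Hist2h2aa1 at 41.5 and 111.0 (-1.42), Hist1h4i at 7229 and 14682 (-1.02) and the bound Hist1h2ac. Hist1h2bc and Hist1h1c were thus higher in bone marrow than in fetal liver in both genotypes.

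Variant genes followed no single pattern. H2afv and H2afz encode the 2 forms of H2A.Z. H2afv read 9221 in Ezh2-null bone marrow, 7645 in wild-type bone marrow, 4190 in Ezh2-null fetal liver and 10686 in wild-type fetal liver, with -1.35 by genotype in fetal liver and 0.27 in bone marrow. Its second probe was detected in bone marrow only, at 29.5 in Ezh2-null and 34.5 in wild type (-0.22). H2afz had -0.21 and 0.14. H2afx, the gene of H2A.X, which is phosphorylated at DNA breaks, read 1360, 1346, 725.0 and 1494 in the same array order, and was lowest in Ezh2-null fetal liver (-1.04 by genotype). H2afj read 11337, 10347, 11375 and 42117 on the shared-sequence probe described above. H2afb2 and H2afb3 are names of the short H2A.B variants of the testis. H2afb2 read 35.3, 28.1, 51.8 and 96.3, and H2afb3 285.0, 150.5, 62.1 and 425.8, with log2 differences by genotype of -2.78 in fetal liver and 0.92 in bone marrow. The H2afb3 probe lies on chromosome 17 by the files, whereas the other probe of that name lies on chromosome X and was detected on no array, so the name of this signal is uncertain.

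H3f3a and H3f3b encode the same protein, H3.3, which replaces H3 outside S phase. H3f3a read 15134 in Ezh2-null bone marrow, 15479 in wild-type bone marrow, 2836 in Ezh2-null fetal liver and 4893 in wild-type fetal liver. It was higher in bone marrow than in fetal liver by 1.66 in wild type and by 2.42 in Ezh2-null on the log2 scale. Its second probe, at a lower signal, gave 1.19 and 1.42. H3f3b read 8801, 11046, 4972 and 7384 in the same order, with 0.58 and 0.82 between sources. By genotype in fetal liver neither was 2-fold apart (-0.79 for H3f3a and -0.57 for H3f3b), and 2 probes of H3f3b disagreed in sign (-0.57 and 0.58).

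The macroH2A genes were higher on the Ezh2-null arrays by their brightest probes. H2afy, the gene of macroH2A1, a large variant known from the inactive X chromosome, read 81.8 in Ezh2-null bone marrow, 45.3 in wild-type bone marrow, 80.3 in Ezh2-null fetal liver and 9.88, not well above background, in wild-type fetal liver. It was at least 4.16-fold higher in Ezh2-null than in wild-type fetal liver, and 0.85 higher (log2) in bone marrow. Its other 2 probes gave smaller or opposite differences. In fetal liver they read 52.5 and 37.4 in Ezh2-null, against 18.2 (not well above background) and 33.1 in wild type. In bone marrow they read 34.1 and 13.3 in Ezh2-null, against 45.6 and 12.8 in wild type, log2 differences of -0.42 and 0.06, so the direction for H2afy in bone marrow rests on the brightest probe. H2afy2, the gene of macroH2A2, read 64.5, 32.8, 83.6 and 66.4 in the same order, with 0.98 in bone marrow and 0.33 in fetal liver. H2afy3, whose listed transcript is non-coding, was detected on the Ezh2-null arrays only, at 22.5 in bone marrow and 88.0 in fetal liver. It was higher by at least 2.02-fold in Ezh2-null than in wild-type bone marrow, and by at least 4.56-fold in fetal liver. By these probes the 3 genes were at least 2-fold higher in 3 of the 6 comparisons by genotype, each a bound. Over all genes, 15.4% were higher in Ezh2-null fetal liver and 4.54% in Ezh2-null bone marrow. H2afy3 is a member only through its detection on the Ezh2-null arrays, so its differences by genotype could not have been lower.

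The variant H1 genes are the last group. H1f0, the linker histone of differentiated cells, was detected in wild-type fetal liver only (47.5), and was at least 3.75-fold lower in Ezh2-null fetal liver. It is a member only through its detection there, so its differences from wild-type fetal liver could not have been higher. H1foo, a linker histone of the oocyte, read 374.4 in Ezh2-null bone marrow, 388.7 in wild-type bone marrow, 1096 in Ezh2-null fetal liver and 650.0 in wild-type fetal liver. H1fx read 10.6 (not well above background), 14.6, 27.3 and 30.5. In all, 2 of 14 variants (14.3%) were at least 2-fold higher and 5 (35.7%) lower in Ezh2-null fetal liver, against 15.4% and 13.5% of all genes. In Ezh2-null bone marrow 1 of 13 (7.69%) was higher and none lower, against 4.54% and 7.75%. Between sources, 2 of 13 variants (15.4%) were higher in bone marrow and 6 (46.2%) lower in wild type, against 13.1% and 31.9% of all genes. In Ezh2-null 3 (23.1%) were higher and 3 lower, against 10.5% and 27.1%. H1f0, H2afj on its shared-sequence probe and H2afb3, whose name is uncertain, are among the 5 lower in Ezh2-null fetal liver. They are also among the 6 lower in wild-type bone marrow. H2afy3, with the limit given above, is among the 2 higher in Ezh2-null fetal liver.

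Genes that serve histone mRNA and histone protein were not lower as a group on the Ezh2-null fetal liver array. In fetal liver, the list of histone mRNA processing and transcription had 17 genes compared, of which the Ezh2-null array was at least 2-fold higher for 5 (29.4%) and lower for 0 (median 0.30), against 15.4% and 13.5% of all genes. Slbp read 341.8 in Ezh2-null and 175.9 in wild-type fetal liver (0.96), and Npat, the coactivator of clustered histone genes, 39.7 and 66.9 (-0.75). Cstf2 (3.14) and Cpsf2 (2.57), of the 3′ cleavage machinery, had the largest differences. Of 24 histone chaperones and importers, 13 (54.2%) were higher and 2 (8.33%) lower in Ezh2-null fetal liver (median 1.27), among them Supt16h of the FACT complex (2.64), the H1 and H3-H4 chaperone Nasp (2.25) and Npm1 (1.97), with Ubn2 lower (-2.27, a bound). In bone marrow 0 of 23 were higher and 1 lower, against 4.54% and 7.75% of all genes. Of 23 S phase and DNA replication genes, 4 (17.4%) were higher and 3 (13.0%) lower in Ezh2-null fetal liver (median -0.06), shares near those of all genes. The replicative helicase subunit Mcm4 had 2.27, while Pcna, the replication clamp, had -1.36, Tk1 -1.68 and Cdc45l -2.29. In bone marrow no S phase gene of 21 was 2-fold apart. Of 11 mitosis genes 2 (18.2%) were higher and 1 (9.09%) lower in Ezh2-null fetal liver, and the proliferation marker Mki67 had 3.08.

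Some other RNAs without a poly(A) tail were also high on the wild-type fetal liver array. A list of 13 RNAs was chosen after the values were seen, so its counts describe these RNAs and not the class. They are called small RNAs here, although the list includes Rn18s, a ribosomal RNA. Of 11 compared, 8 (72.7%) were at least 2-fold lower in Ezh2-null fetal liver and 0 higher, against 13.5% and 15.4% of all genes for lower and higher, with a median of -1.21. Rmrp, the RNA of RNase MRP, read 232.1 in Ezh2-null bone marrow, 230.0 in wild-type bone marrow, 356.1 in Ezh2-null fetal liver and 1318 in wild-type fetal liver. Rpph1, the RNA of RNase P, read 193.7, 257.9, 321.0 and 1191 in the same order. For both, wild-type fetal liver stood alone. Rn4.5s did not share this: it read 74037 in Ezh2-null bone marrow and 63763 in wild-type fetal liver. Rnu7 was not detected in wild-type fetal liver. Between sources in wild type, 10 of 12 were lower in bone marrow (median -1.54), against 31.9% of all genes, and in Ezh2-null 0 of 11 were 2-fold apart (median -0.37). The labelling kit that the labels name primes on poly(A), and the part of the labelling in the histone result was not tested.

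**Figure D4:**
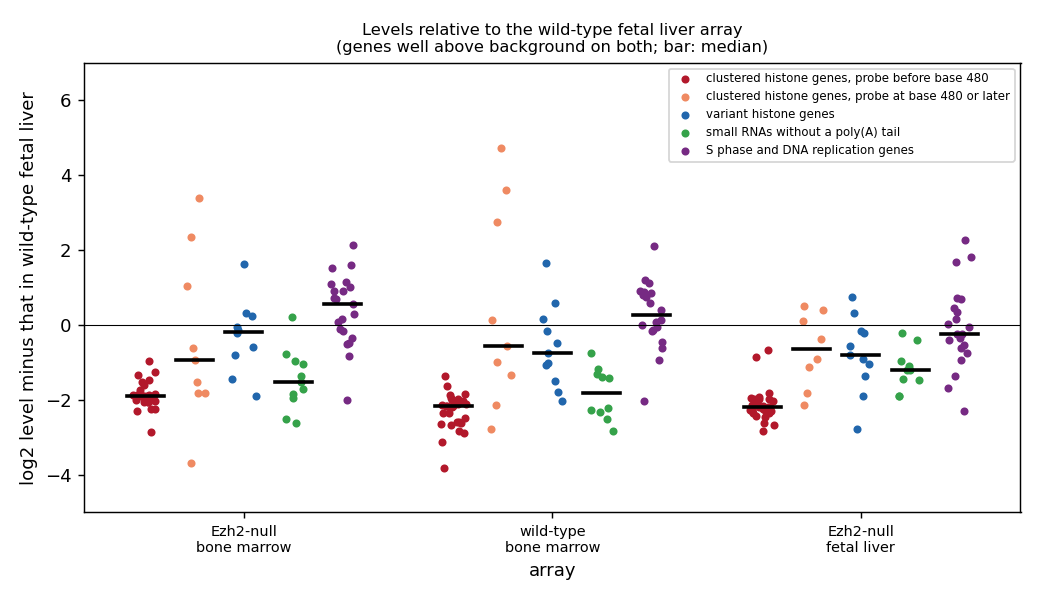
Log2 level on the Ezh2-null bone marrow, wild-type bone marrow and Ezh2-null fetal liver arrays minus that on the wild-type fetal liver array, for genes well above background on both, in 5 groups (colours), with medians as bars. Clustered histone genes with a probe before base 480 and the small RNAs (a list that includes the ribosomal RNA Rn18s) lie below 0 on all 3 arrays, apart from 1 small RNA in Ezh2-null bone marrow. The S phase genes lie on both sides.

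Probe composition and other cell types also differed between these arrays. Clustered probes had a median GC share of 51.7% and started at a median of base 351, against 45.0% and base 875.5 for variant probes. Over all genes with a probe before base 480 and at least 50% GC, 248 of 1150 (21.6%) were lower in Ezh2-null fetal liver (median -0.48). In fetal liver the clustered median was -2.13. With the trend of the difference on GC or on probe position removed, as fitted over all genes, it was at or beyond -1.90. The part of GC or position in the clustered difference was not tested. Erythroid maturation markers, which include the globins, had 6 of 7 lower in Ezh2-null fetal liver, against 13.5% of all genes. In Ezh2-null bone marrow 6 of 7 were higher, against 4.54%. Their summed level was 17975 in Ezh2-null and 4644 in wild-type bone marrow. In fetal liver it was 34768 in Ezh2-null and 117055 in wild type. Hepatocyte markers summed to 93.5 in Ezh2-null and 52.7 in wild-type bone marrow. In fetal liver they summed to 135.8 in Ezh2-null and 679.1 in wild type, where 5 of 10 were detected and Alb, Afp and Ttr were not. Granulocyte and macrophage markers summed to 53978 in Ezh2-null and 54654 in wild-type bone marrow. In fetal liver they summed to 85721 in Ezh2-null and 105557 in wild type, where Itgam alone read 105022. Lymphoid markers summed to 4035 in Ezh2-null bone marrow, where 8 of 11 were detected, and to 183 to 326 on the other 3 arrays, with Vpreb1 and Dntt the brightest. Their part in the histone results was not tested.

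Promoter windows were searched for 3 sequence elements known from histone promoters. Of 38 clustered genes with a RefSeq promoter window (GRCm38.p6, 250 bases before to 50 after the start, both strands searched), 33 (86.8%) held CCAAT, against 9 of 12 variant genes (75%) and 41.1% of 27025 genes. TATAAA was held by 22 of 38 clustered genes (57.9%), 1 of 12 variants (8.33%) and 15.7% of all genes. The octamer ATTTGCAT was held by 12 of 38 clustered genes (31.6%), among them 6 of 7 H2B genes, by 1 of 12 variants and by 1.97% of all genes. Below are the 150 bases before the start of an H2B gene high in wild-type fetal liver (Hist1h2bm, chr13:21721894-21722043, plus strand), an H2B gene also lower in Ezh2-null bone marrow (Hist1h2bg, chr13:23571250-23571399, plus strand) and the variant with the octamer (H3f3b, chr11:116024505-116024654, minus strand), 5′ to 3′ in the sense of the gene, with these motifs in capitals on either strand.
Hist1h2bm: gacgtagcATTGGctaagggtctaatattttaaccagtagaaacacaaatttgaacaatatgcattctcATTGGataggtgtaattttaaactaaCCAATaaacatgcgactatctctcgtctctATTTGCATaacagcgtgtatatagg
Hist1h2bg: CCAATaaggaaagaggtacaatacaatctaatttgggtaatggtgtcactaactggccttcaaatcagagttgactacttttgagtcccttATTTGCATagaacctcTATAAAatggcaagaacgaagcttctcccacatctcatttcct
H3f3b: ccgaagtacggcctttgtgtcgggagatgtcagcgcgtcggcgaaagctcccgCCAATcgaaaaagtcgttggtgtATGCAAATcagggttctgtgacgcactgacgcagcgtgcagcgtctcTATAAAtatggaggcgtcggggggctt
Hist1h2bm and Hist1h2bg share CCAAT and the octamer, and only the second shows TATAAA in these bases. In Ezh2-null against wild-type bone marrow they had log2 differences of 0.47 and -1.56. Their probes start at bases 90 and 554, and the Hist1h2bm probe lists 4 RefSeq genes, so its value is not that of 1 promoter. The part of these motifs in the differences was not tested. Of the 6 clustered genes lower in Ezh2-null bone marrow, 4 had a window, and of these 4 held CCAAT, 2 held TATAAA and 2 held the octamer. A motif match is a description of these letters and not a measured site.

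The only fit with a residual was additive, with a genotype term and a source term over the 4 arrays and 1 residual degree of freedom. In limma's test with Benjamini-Hochberg adjustment over 17694 genes, 0 of 57 members had an adjusted p under 0.05 for either term, and 0% of all genes did. At an unadjusted p under 0.05 there was 1 member for genotype, against 2.4% of all genes, and 6 for source, against 17.3%. The 1 for genotype was Hist1h2bg, lower on Ezh2-null arrays in both sources, with a fitted log2 difference of -1.54 (adjusted p = 0.802). The 6 for source were Hist1h2bc (4.17), Hist1h1c (2.92), H3f3a (2.04) and H3f3b (0.70), higher in bone marrow in both genotypes, and Hist1h2bg (-1.84) and H1fx (-0.58), lower there. This fit measures what both sources, or both genotypes, have in common, and the opposed differences of the clustered genes go into its residual.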

How the data were processed

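Each of the 4 samples was measured on 1 Agilent one-colour array. Trizol total RNA (250 ng) was amplified with spike-in controls and given a Cy3 label, per the labels' protocols. Per the file headers, the deposited intensity was extracted with version 10.7.3.1 of Agilent Feature Extraction under protocol GE1_107_Sep09, with probe positions on mm9, and the processed intensity is background-subtracted within the array. The arrays share 1 slide and 1 scan date. Outlier spots (95 to 135 an array) and control spots were left out, no spot was saturated, and spots of a probe were averaged (39418 probes). The deposited series table holds the same intensities, rounded, with column medians of 8.63, 10.3, 10.8 and 7.05 (Ezh2-null and wild-type bone marrow, Ezh2-null and wild-type fetal liver), on a linear scale and uncentred; no value differed by over 0.496%.

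Log2 intensities were scaled to the 75th percentile of the 12880 probes that every array detected well above background. Each gene is read from its brightest probe (by mean log2), under the name in the files. All 62 histone names matched a RefSeq gene. Hist3h2bb matched by an older name only, to H2bu1-ps, the name of a pseudogene, and the H2afy3 transcript is listed as non-coding. A gene dim on 1 array of a pair was a bound, "at least N-fold", against the higher of its own signal and the array's lowest signal well above background (9.79, 11.1, 12.6 and 19.3 in the order above); a gene dim on both was left out. The number of arrays limits the precision: no test is possible between 2 arrays, and leaving 1 out leaves the fit no residual. The fit was limma 3.58.1 in R 4.3.3, two-sided, tested on simulated data, with signals under the highest of these floors (19.3) raised to it.

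Named were all variants, up to 10 largest differences each way among clustered genes, the 5 brightest members and up to 6 genes of each other list; motifs, stem-loop genes, small RNAs and genes under 2-fold were named after their values were seen. The members and lists were chosen with earlier results of these data known. Alternatives tried were 3 other scalings, normexp, 2 filters, other probe choices, removal of trends on probe position and GC, the series table and, in the fit, no floor.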

Additional observations from a re-analysis of the deposited data

Results flagged for a closer look

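The results here were picked out because the difference runs opposite ways in 2 groups, for single genes at 2-fold or more each, and for the clustered genes as a class by the sign of the medians (-2.13 in fetal liver and 0.33 in bone marrow, the second under 2-fold). With 1 array a group, none of these differences of differences was tested. The clustered genes as a class had a median genotype log2 difference in fetal liver minus that in bone marrow of -2.32. Among single genes this value was -4.62 for Hist1h3g and -3.34 for Hist1h4c, both lower in Ezh2-null fetal liver and higher in Ezh2-null bone marrow. Hist2h2ab had -3.92 and Hist2h2bb -6.81, each from bounds on both sides. For these 2 genes the bone marrow against fetal liver difference in wild type minus that in Ezh2-null is the same quantity, -3.92 and -6.81. For H2afb3, whose probe lies on another chromosome than its gene's second probe, that value was -3.70.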

How the results depend on the processing

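Signs of the clustered medians held under every alternative run, and spike-in scaling moved the medians of all genes to 0.22 (fetal liver by genotype), 0.68 and 0.35 (between sources in wild type and Ezh2-null). Of the values that answer a comparison, 160 held and 40 moved. Median log2 differences that moved are given first. In Ezh2-null against wild-type fetal liver, the clustered median was -1.58 (quantile), -1.69 (spike-in), -1.95 (normexp) and -1.90 (position trend removed), and the variant median -0.28, -0.23 and -0.41 (quantile, spike-in, mean of probes). In wild-type bone marrow against fetal liver, the clustered median was -1.77 (percentile over all probes), -1.59 (quantile), -0.82 (spike-in), -1.93 (normexp), -1.83 and -1.84 (position and GC trends removed), and the variant median -0.39, -0.52 and 0.56 (percentile, quantile, spike-in). In Ezh2-null bone marrow against fetal liver, the clustered median was 0.85, 0.42 and 1.10 (percentile, quantile, spike-in), and the variant median 0.65, 0.49, 0.91 (the same 3), 0.67 (detected on all 4 arrays), 0.54 (mean of probes) and 0.27 (probe farthest into the transcript).

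Counts of clustered genes also moved. In Ezh2-null against wild-type bone marrow, 1 (normexp) or 2 (detected on all 4 arrays) were higher. In wild-type bone marrow against fetal liver, 2 were higher (detected on all 4) and 15 lower (spike-in). In Ezh2-null bone marrow against fetal liver, 17, 27, 2 and 1 were higher (percentile, spike-in, normexp, detected on all 4) and 1, 1, 0 and 0 lower (percentile, quantile, spike-in, normexp). In wild-type bone marrow against fetal liver, H1fx (0.24) and H2afy2 (0.28) turned under spike-in scaling, and H2afj (0.76) and H2afy (-1.37) with the probe farthest into the transcript, which was chosen, like GC, after seeing the data. Of calls on single members over all alternatives, 1101 held, 79 fell under 2-fold and 4 turned. In the additive fit, 1 member was called for source when only genes detected on all 4 arrays were tested (Hist1h1c, adjusted p = 0.0139), and 1 for genotype (H2afy3) and 3 for source with no filter; elsewhere the lowest adjusted p of a member ran from 0.202 to 0.999. The cause of these moves was not tested.

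Over all genes, the share of calls that were higher moved by over 10 points. It was 53.2% in fetal liver by genotype (41.4% percentile over all probes, 81.7% spike-in, 42.5% normexp), and 29.1% and 27.9% between sources in wild type and Ezh2-null (54.9% and 64.2% percentile, 51.9% and 52.3% quantile, 94.5% and 74.6% spike-in, 11.9% in wild type under normexp). No paired analysis was possible because each group is 1 array and the labels give no shared replicate numbers. Leaving out an array and a slide block could not be fitted.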
